A study of Homo sapiens with 9 samples.

Results

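The neutrophil-attracting CXC chemokines were followed in human THP-1 cells through 5 genes, CXCL8, CXCL1, CXCL2, CXCL3 and CXCL5. They were taken by symbol from a deposited table of read counts, the first row of each symbol, and are 5 of its 30000 rows. Of the 5, 4 were among the 18437 rows with enough reads to be tested (about 0.481 CPM, a count scaled to a common library size, in at least as many libraries as a group holds), and CXCL5 was not. THP-1 is a monocytic leukaemia line, so 1 tumour line stands here for monocytes. It was sequenced as 9 RNA libraries in 3 groups of 3, and the series title gives Huh7, a hepatoma line, as the source of the ectosomes, vesicles shed directly from the surface of cells. The control group (Ctrl) carries no ectosome label. The group Scramble_Ecto received ectosomes with the shRNA label Scramble, and the group PKM2_KD_Ecto received ectosomes with the shRNA label PKM2_KD, read here as ectosomes of Huh7 cells in which PKM2, an isoform of pyruvate kinase, was knocked down. The sources used here give neither the dose of ectosomes, nor the time of incubation, nor the number of donor-cell preparations.

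Chemokines of this family carry the residues Glu-Leu-Arg before their first cysteines and draw neutrophils by binding the receptors CXCR1 and CXCR2. CXCL8 is interleukin-8. CXCL1, CXCL2 and CXCL3 are the closely related GRO chemokines, and CXCL5 was first known as an epithelial chemokine. Monocytes make them when interleukin-1, TNF or Toll-like receptor ligands activate NF-kB, a transcription factor that binds kB sites in their promoters. AP-1 and C/EBP factors act beside it at CXCL8, and AU-rich elements in the mRNAs make the transcripts short-lived.

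The promoters are shown because the same kB site of 9 letters, GGAATTTCC, lay within 150 bases before the RefSeq transcription start of 5 of 5 members. On either strand it was found in 89 of 35116 RefSeq promoters of that length, 0.253%. Since the promoters are shown for holding these letters, the share says how rare the letters are and is no test. The matches of CXCL1, CXCL2 and CXCL3, whose promoters are closely alike, are not independent of each other. A looser kB pattern, GGG and CC with any 5 bases between them, overlaps the site in 4 of the members, was in 5 of 5 and stood in 43.1% of all promoters. The 30 bases around the site, read 5′ to 3′ on the strand of each gene with the site in capitals, also place CXCL6, a sixth chemokine of the cluster, beside CXCL5. They come from RefSeq on GRCh38.p14.
CXCL8, chr4:73740468-73740497, plus strand: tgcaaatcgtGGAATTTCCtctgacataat
CXCL1, chr4:73869305-73869334, plus strand: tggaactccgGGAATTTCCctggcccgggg
CXCL2, chr4:74099253-74099282, minus strand: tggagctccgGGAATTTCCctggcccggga
CXCL3, chr4:74038748-74038777, minus strand: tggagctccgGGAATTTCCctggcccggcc
CXCL5, chr4:73998748-73998777, minus strand: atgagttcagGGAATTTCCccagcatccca
CXCL6, chr4:73836579-73836608, plus strand: ctgagttcagGGAATTTCCccagcatccca
The site began 91 bases before the start of CXCL8, 90 before that of CXCL5, 78 before those of CXCL1 and CXCL3, and 77 before that of CXCL2. Over the 150 bases the promoters of CXCL1 and CXCL2 were 88.8% identical, those of CXCL1 and CXCL3 88.1% and those of CXCL2 and CXCL3 86.3%, whereas CXCL8 shared 44.0% to 48.0% with the other members. The start used is that of RefSeq; the outermost start in GENCODE lies 63 bases further upstream for CXCL8, 98 for CXCL2, 102 for CXCL5 and 118 for CXCL3. A match to the site is a description of the letters and does not show that a factor binds there.

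A longer stretch is given for CXCL8 and CXCL1, whose promoters hold different neighbours of the kB site. Whether these neighbours bear on the response of the genes was not tested. In CXCL8 an AP-1 pattern, TGANTCA, stood 137 to 131 bases before the start. It was in 4.17% of promoters and in 1 of 5 members. The pattern TATAAA was in 6.71% of promoters and, among the members, in CXCL8 alone, in the part of its promoter that is not printed. Capitals mark the kB site in both and the AP-1 pattern in CXCL8.
CXCL8, chr4:73740419-73740505, plus strand: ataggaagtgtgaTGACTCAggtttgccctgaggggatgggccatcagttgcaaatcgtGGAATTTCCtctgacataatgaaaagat
CXCL1, chr4:73869243-73869392, plus strand: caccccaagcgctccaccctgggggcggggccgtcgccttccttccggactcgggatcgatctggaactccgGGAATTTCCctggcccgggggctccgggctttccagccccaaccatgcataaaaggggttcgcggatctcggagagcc

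The libraries held 17744587 to 23864381 counts. Control replicate 3 stood apart: its counts differed from those of control replicates 1 and 2 by a chi-square per degree of freedom of 30.4 and 28.3, against 3.66 between these and 2.07 to 4.95 within the other groups. No label ties replicates to separate cultures, so p-values measure only how these libraries vary, and that variation may be technical. PKM, the gene of PKM2, stood at 649 CPM in control, 3496 CPM in scramble and 2310 CPM in PKM2-knockdown libraries on average. It was counted in the recipient cells over all isoforms, so it does not check the knockdown label. The 9 monocytic markers all had reads, with CD68 lowest in control cells at a mean of 0.313 CPM. With scramble ectosomes 2 of the 9 were higher than in control, SPI1 (252 to 493 CPM) and CSF1R (35.4 to 84.9 CPM). The 5 lower ones included LYZ (203 to 17.6 CPM), MPO (4.17 to 0.445 CPM) and FCGR1A (71.0 to 14.5 CPM). Over all genes 34.6% were called higher and 33.2% lower in this comparison. With PKM2-knockdown ectosomes LYZ, MPO and FCGR1A were still below control, at 39.9, 0.547 and 41.1 CPM. The other markers called against control were 4 higher ones. SPI1 stood at 560 CPM, CSF1R at 350 CPM and ITGAM at 45.9 CPM, against 23.4 CPM in control. CD14 went from 4.84 CPM in control and 6.20 CPM in scramble to 92.1 CPM. Of all genes 27.0% were called higher and 26.7% lower than control with these ectosomes. The 9 markers summed to 583 to 748 CPM in control, 638 to 696 CPM in scramble and 1102 to 1265 CPM in PKM2-knockdown libraries. Of 18 hepatocyte and hepatoma markers 11 had a row, and their sum was 3.86 to 8.77 CPM in control, 7.56 to 8.16 CPM in scramble and 41.4 to 48.2 CPM in PKM2-knockdown libraries. SERPINA1, which monocytes also express, made up 37.3 CPM of the last, albumin (ALB) stood at 0.111, 0.113 and 0.447 CPM in the 3 groups, and TTR and HNF4A had 0 reads in control and PKM2-knockdown libraries. With scramble ectosomes TTR had 7 reads and HNF4A 10, and HNF4A (0.160 CPM), AMBP (0.380 CPM) and RBP4 (0.228 CPM) were higher in every scramble library than in any other. Others of the list were lower on average than in control: APOA1 (0.675 to 0.252 CPM, adjusted p = 0.0288), TF (0.824 to 0.350 CPM, adjusted p = 0.052) and HP (0.133 to 0.0451 CPM, not tested). Of the 4 tested markers of this list, 0 were called higher and 1 lower with scramble ectosomes. The 5 epithelial markers summed to 0.160 to 0.662 CPM in control, 0.180 to 0.574 CPM in scramble and 1.94 to 2.65 CPM in PKM2-knockdown libraries, where CDH1 was 25.8-fold above scramble (1.81 against 0.0670 CPM, adjusted p = 5.70e-05). Of 6 neutrophil markers CSF3R made up most, 170, 33.9 and 114 CPM in the 3 groups, and the neutrophil-restricted FCGR3B had a mean of at most 0.102 CPM in a group. The part of other cell types, or of RNA brought by the ectosomes, in the results was not tested. In bulk RNA fewer cells making a transcript and less of it per cell cannot be told apart.

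Scramble ectosomes against control asks how the cells answer vesicles of hepatoma cells that were not depleted of PKM2. The tested members CXCL8, CXCL1, CXCL2 and CXCL3 were all far higher with scramble ectosomes, from 72.7-fold for CXCL1 to 511-fold for CXCL3. Of all genes tested, 34.6% were called higher and 33.2% lower (edgeR quasi-likelihood test, Benjamini-Hochberg adjusted p under 0.05 over 18437 rows), with a median log2 change of -0.01. A call alone is thus common here, and the ranks give the size. CXCL2 and CXCL3 could not have passed the filter on control libraries alone, so it favoured a rise for them. By log2 fold change CXCL3 ranked 14 from the top, CXCL8 32, CXCL2 42 and CXCL1 114.

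CXCL8 (chromosome 4, 73740506 to 73743716, plus strand, GRCh38), the most abundant member, had 365, 582 and 65 reads in the control libraries and 89691, 82411 and 93978 with scramble ectosomes. In TMM-scaled CPM, used for every level below unless another unit is named, this was 16.0 ± 11.1 against 4291 ± 231 (mean ± SD, n = 3 libraries per group). The lowest scramble library, at 4043 CPM, lay far above the highest control library, at 25.0 CPM, and control replicate 3 was the lowest control at 3.58 CPM. CXCL8 rose 266-fold (log2 change 8.06, SE 0.58, adjusted p = 5.19e-07).

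CXCL3 (chromosome 4, 74036589 to 74038807, minus strand) was nearly silent in control cells. Its reads were 14, 14 and 0 in the control libraries and 5055, 4510 and 5326 with scramble ectosomes, or 0.449 ± 0.395 and 240 ± 13.8 CPM. The fold of 511 (log2 change 8.997, SE 0.32, adjusted p = 5.03e-09) rests on 28 control reads in all and was 954 with limma-voom.

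CXCL2 (chromosome 4, 74097035 to 74099293, minus strand) had 30, 29 and 4 reads in control and 4902, 4092 and 4834 with scramble ectosomes, 1.02 ± 0.715 against 222 ± 8.21 CPM. It rose 212-fold (log2 change 7.73, SE 0.30, adjusted p = 8.59e-09). CXCL1 (chromosome 4, 73869393 to 73871242, plus strand) had 39, 32 and 9 reads in control and 1874, 1905 and 2211 with scramble ectosomes, 1.32 ± 0.791 against 96.8 ± 11.1 CPM. It rose 72.7-fold (log2 change 6.18, SE 0.26, adjusted p = 1.39e-08). In both genes, as in CXCL8 and CXCL3, every scramble library was above every control library, which held for 36.8% of all genes in this direction, and control replicate 3 was again the lowest control. Without it the log2 rises were smaller and still called: 7.58 for CXCL8, 8.48 for CXCL3, 7.30 for CXCL2 and 5.83 for CXCL1.

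**Figure D1:**
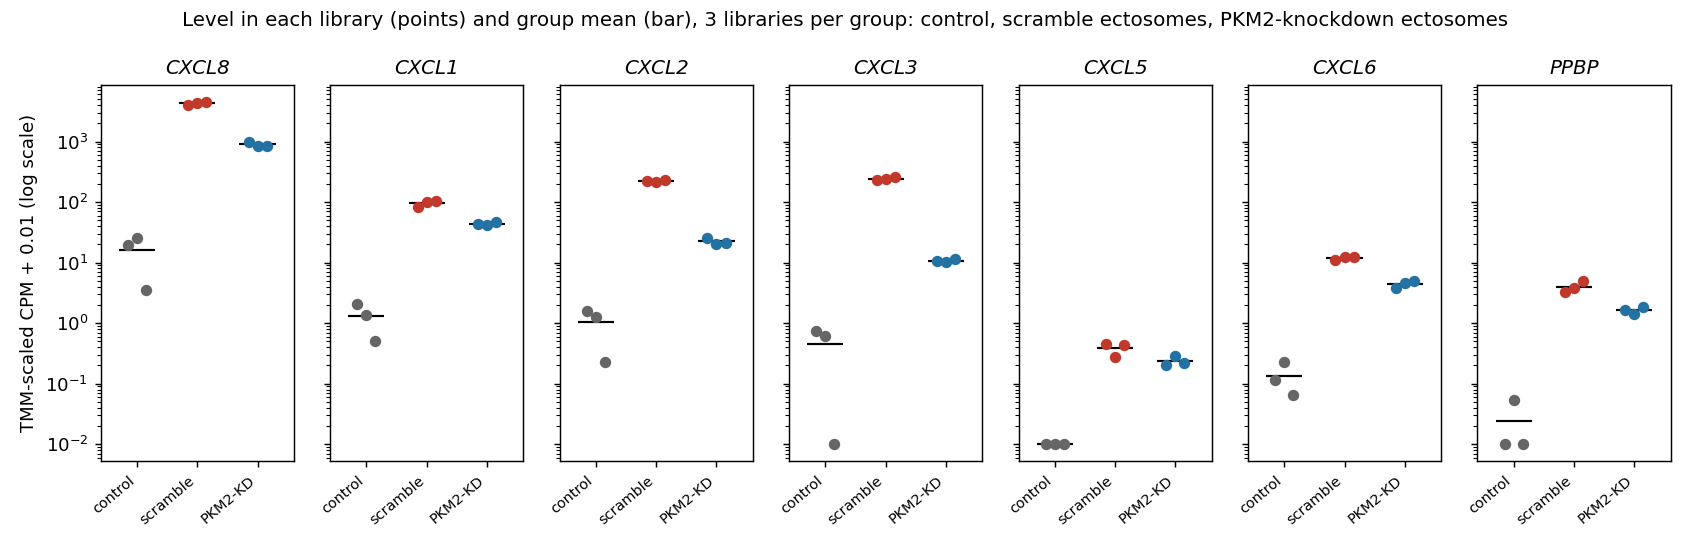
TMM-scaled CPM of the 5 members and of CXCL6 and PPBP in each library (points, with 0.01 CPM added so that 0 can be drawn on the log axis) and the mean of each group (bars), 3 libraries per group. The 3 scramble libraries of CXCL8 lie between 4043 and 4498 CPM and the PKM2-knockdown libraries between 846 and 989 CPM; CXCL5 lies below 0.5 CPM in every library.

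The comparison of the 2 kinds of ectosomes asks what changes when the donor cells carry the PKM2 knockdown. The same 4 genes were lower with PKM2-knockdown than with scramble ectosomes, by very different factors: 22.4-fold for CXCL3, 9.89-fold for CXCL2, 4.79-fold for CXCL8 and 2.20-fold for CXCL1. Of all genes 30.3% were called lower and 31.4% higher in this comparison (edgeR quasi-likelihood test), and the median log2 change was 0.03. From the bottom of the list CXCL3 ranked 59, CXCL2 134, CXCL8 390 and CXCL1 1648 of 18437, so many genes fell further than CXCL1.

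CXCL3 had 217, 219 and 215 reads with PKM2-knockdown ectosomes, 10.7 ± 0.506 CPM, and kept 4.47% of its scramble level (95% interval 3.27% to 6.09%; log2 change -4.48, SE 0.23, adjusted p = 1.18e-07). CXCL2 had 523, 440 and 406 reads, 22.5 ± 2.74 CPM, and kept 10.1% (7.49% to 13.7%; log2 change -3.31, SE 0.22, adjusted p = 6.51e-07). These intervals come from the fitted SE, an approximation that can understate the error at low read numbers. They take the width of a normal distribution, which is narrow for a fit with 6 residual degrees of freedom. For both genes every PKM2-knockdown library lay below every scramble library, with the highest PKM2-knockdown library of CXCL2 at 25.6 CPM and its lowest scramble library at 215 CPM.

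CXCL8 had 20173, 18252 and 16162 reads with PKM2-knockdown ectosomes, 897 ± 80.0 CPM, and kept 20.9% of its scramble level (11.5% to 38.0%; log2 change -2.26, SE 0.44, adjusted p = 0.00111). CXCL1 had 877, 906 and 889 reads, 44.0 ± 2.24 CPM, and kept 45.4% (35.2% to 58.7%; log2 change -1.14, SE 0.19, adjusted p = 0.000368). Groups did not overlap for these 2 genes either, as for 37.1% of all genes in this direction: the lowest scramble library of CXCL1 was at 84.5 CPM and its highest PKM2-knockdown library at 46.5 CPM. Each SE rests on the spread of all 9 libraries. The scattered controls of CXCL8, at 3.58 to 25.0 CPM, thus enter its interval although they are not compared here.

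PKM2-knockdown ectosomes still left the genes well above control. Against control, CXCL8 was 55.6-fold higher (log2 change 5.80, SE 0.52, adjusted p = 7.24e-06), CXCL1 33.0-fold (5.05, SE 0.26, adjusted p = 1.62e-07), CXCL3 22.8-fold (4.51, SE 0.35, adjusted p = 2.23e-06) and CXCL2 21.5-fold (4.43, SE 0.30, adjusted p = 9.58e-07). Of all genes 27.0% were called higher and 26.7% lower in this comparison, and in 30.7% every PKM2-knockdown library was above every control library, as in these 4. The fold of CXCL3 was 42.6 with limma-voom. The 3 comparisons share libraries in pairs, so their values are given side by side and are not independent of each other.

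**Figure D2:**
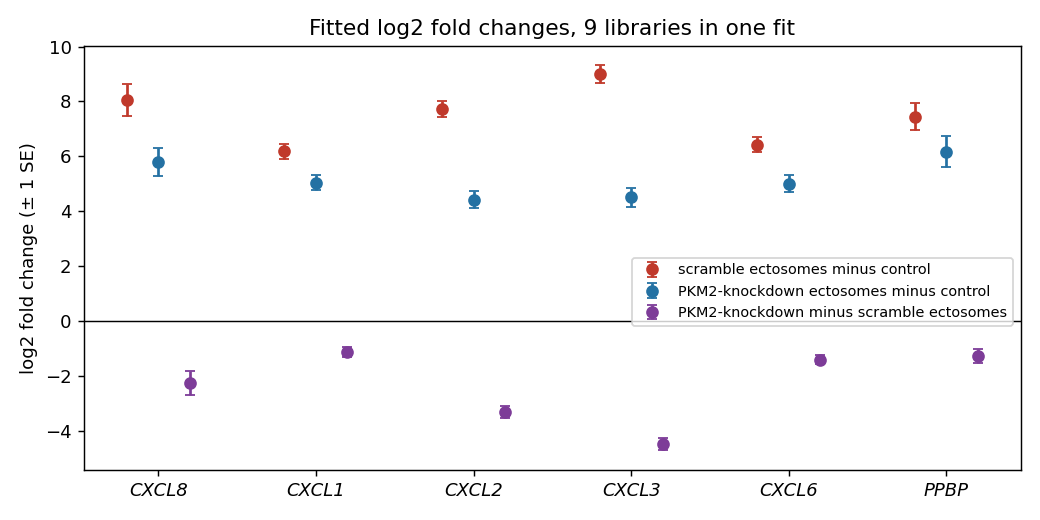
Fitted log2 fold changes (points) with 1 SE (bars) for the 4 tested members and for CXCL6 and PPBP in the 3 comparisons, from 1 fit over 9 libraries. Against control the values lie between 4.43 and 8.997 for the members; PKM2-knockdown minus scramble runs from -4.48 for CXCL3 to -1.14 for CXCL1.

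The falls were unequal, so the mix of transcripts differed between the ectosomes. It is given as ratios of reads within a library, which no scaling of libraries touches. Scramble libraries held 2.09 to 2.35 reads of CXCL1 per 100 of CXCL8, and PKM2-knockdown libraries 4.35 to 5.50. CXCL2 went the other way, from 4.97 to 5.47 reads per 100 of CXCL8 down to 2.41 to 2.59, and CXCL3 from 5.47 to 5.67 down to 1.08 to 1.33. The ratio of CXCL3 to CXCL1 shifted most: it was 10.2-fold lower with PKM2-knockdown ectosomes (log2 shift -3.35), from 237 to 270 reads of CXCL3 per 100 of CXCL1 to 24.2 to 24.7. In each of the 6 ratios among these 4 genes the scramble and PKM2-knockdown libraries did not overlap, and each gave p = 0.1 in an exact two-sided permutation test (0.1 after Benjamini-Hochberg adjustment over the 6), the smallest p that 3 libraries against 3 allow. CXCL3 and CXCL2, whose promoters are 86.3% identical, parted by 2.25-fold (log2 shift -1.17). In control libraries, where CXCL1, CXCL2 and CXCL3 had 0 to 39 reads, the ratios were spread widely.

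**Figure D3:**
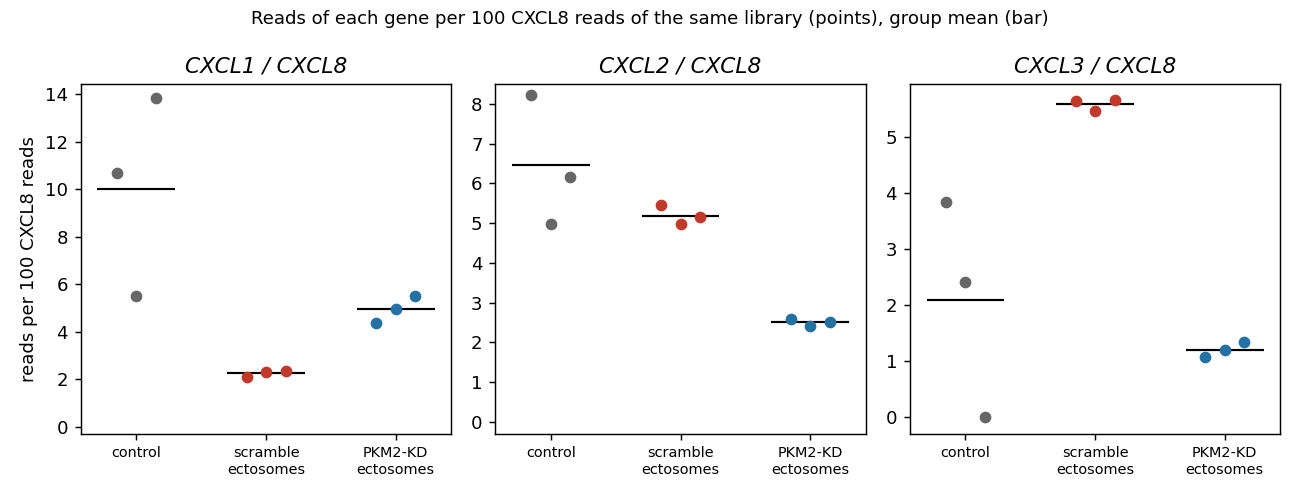
Reads of CXCL1, CXCL2 and CXCL3 per 100 CXCL8 reads of the same library (points) with the group mean (bars), 3 libraries per group. With PKM2-knockdown ectosomes the CXCL1 points lie higher (4.35 to 5.50 against 2.09 to 2.35) and the CXCL3 points lower (1.08 to 1.33 against 5.47 to 5.67) than with scramble ectosomes, while the control points are spread.

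Levels of different genes were compared as CPM divided by the kilobases of exon (RPKM). In scramble libraries the order was CXCL8 at 1887 ± 101, CXCL2 at 148 ± 5.47, CXCL3 at 108 ± 6.20, CXCL1 at 74.7 ± 8.54 and CXCL5 at 0.150 ± 0.0406 RPKM (SD, n = 3), with no overlap between neighbours. In PKM2-knockdown libraries CXCL1 moved up to the second place: CXCL8 stood at 394 ± 35.2, CXCL1 at 33.9 ± 1.73, CXCL2 at 14.999 ± 1.82, CXCL3 at 4.83 ± 0.228 and CXCL5 at 0.0902 ± 0.0180 RPKM, again with no overlap. In control cells the means ran CXCL8, CXCL1, CXCL2, CXCL3, CXCL5, from 7.04 down to 0 RPKM, but the libraries of each neighbouring pair overlapped. The orders were the same when the longest transcript replaced the union of exons as the length. CXCL8 was 84.9% to 85.3% of the members' summed RPKM in scramble libraries and 87.1% to 88.8% in PKM2-knockdown libraries. Among all 30000 rows ranked by RPKM it stood at 14 or 15 in each scramble library, at 50 to 74 in the PKM2-knockdown libraries and at 4029 to 11439 in the controls. Of all counts it took 0.376% to 0.410% in scramble and 0.0869% to 0.103% in PKM2-knockdown libraries.

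CXCL5 (chromosome 4, 73995642 to 73998779, minus strand) stayed rare. It had 0 reads in the 3 control libraries, 10, 5 and 9 with scramble and 4, 6 and 4 with PKM2-knockdown ectosomes. Set against a limit of 3 reads over the control group, its scramble level was at least 7.76-fold and its PKM2-knockdown level at least 4.62-fold higher than control, taking its 24 and 14 reads as they stand. With counting error in both groups the exact 95% lower limits of these ratios were 5.83 and 3.28. The 2 kinds of ectosomes overlapped, and the ratio of PKM2-knockdown to scramble was 0.595 with an exact 95% interval of 0.285 to 1.198, so no difference was detectable at this depth. Bounds and intervals from reads cover counting error only. Without the filter on low counts, edgeR's quasi-likelihood test gave an adjusted p of 0.000481 for scramble against control, 0.00335 for PKM2-knockdown against control and 0.331 between the ectosomes. In all 3 groups CXCL5 had the last place per length.

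Other ligands of the cluster were higher with scramble ectosomes and lower with the knockdown. CXCL6, which also binds CXCR1 and CXCR2, had 2, 5 and 1 reads in control, 241, 232 and 261 with scramble and 78, 99 and 93 with PKM2-knockdown ectosomes. It rose with scramble ectosomes (log2 change 6.42, SE 0.28, adjusted p = 1.43e-08, or 7.08 without control replicate 2) and was 2.67-fold below scramble with PKM2-knockdown ectosomes (log2 change -1.41, SE 0.17, adjusted p = 3.68e-05). PPBP, whose product is cut to the neutrophil chemokine NAP-2 and which platelets store, had 0, 1 and 0 reads in control, 71, 71 and 103 with scramble and 34, 30 and 35 with PKM2-knockdown ectosomes. With 1 control read, its level with scramble ectosomes was 238 times control with an exact 95% interval of 42.2 to 9419. Between the ectosomes it was 2.42-fold lower with the knockdown (log2 change -1.27, SE 0.25, adjusted p = 0.00115). CXCL6 thus kept 37.5% and PPBP 41.4% of the scramble level, values inside the interval of CXCL1 and outside those of CXCL2 and CXCL3. The value of CXCL6 also lies inside the interval of CXCL8, which carries the scatter of the control libraries. The platelet factor genes PF4 and PF4V1 are not analysed here.

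The receptor CXCR2 moved opposite to the ligands with scramble ectosomes. It had 260, 285 and 279 reads in control, 95, 96 and 106 with scramble and 88, 95 and 71 with PKM2-knockdown ectosomes. CXCR2 fell 2.88-fold with scramble ectosomes (log2 change -1.52, SE 0.14, adjusted p = 3.73e-06) and was 3.31-fold below control with PKM2-knockdown ectosomes (adjusted p = 3.93e-06). Between the ectosomes its groups overlapped (log2 change -0.20, SE 0.15, adjusted p = 0.258). CXCR1 had at most 4 reads in a library and was not tested.

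The members span 358788 bases of chromosome 4, from 73740506 to 74099293, in the order CXCL8, CXCL1, CXCL5, CXCL3, CXCL2, with CXCL6 and PPBP between them. From 200000 bases before CXCL8 to the same distance beyond BTC, the annotation lists 31 genes, 16 of them protein-coding, of which 20 had a row and 10 were tested. Beyond the chemokines, AREG, encoding the EGF receptor ligand amphiregulin, had 3, 2 and 0 reads in control, 1001, 874 and 960 with scramble and 17, 13 and 10 with PKM2-knockdown ectosomes. It rose by 9.001 on the log2 scale with scramble ectosomes (adjusted p = 2.04e-09; 9.72 without control replicate 1) and differed by -6.11 between the ectosomes (adjusted p = 1.64e-08). MTHFD2L, a mitochondrial folate enzyme gene and the nearest beyond CXCL2, rose less (log2 fold change 1.92, adjusted p = 2.17e-06) and fell back with the knockdown (-2.47, adjusted p = 8.29e-07). EPGN, encoding epigen, had 1 control read, 64 reads over the scramble and 5 over the PKM2-knockdown libraries, and was lower with the knockdown (log2 fold change -3.54, adjusted p = 0.000155, or -4.26 without PKM2-knockdown replicate 3). PARM1 went up with scramble ectosomes (log2 fold change 5.09, adjusted p = 3.10e-08) and was higher, not lower, with PKM2-knockdown ectosomes (0.72, adjusted p = 0.00214). Of the 4 tested genes of the list of neighbours, 4 rose with scramble ectosomes, and 3 were lower and 1 higher with the knockdown. Over all genes 34.6% were called higher with scramble ectosomes and 30.3% lower between the ectosomes. AREG, EPGN and PARM1, like CXCL6 and PPBP, could not have passed the filter on control libraries alone, so it favoured a rise. EPGN passed it through scramble libraries alone, so its fall with the knockdown was favoured as well.

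**Figure D4:**
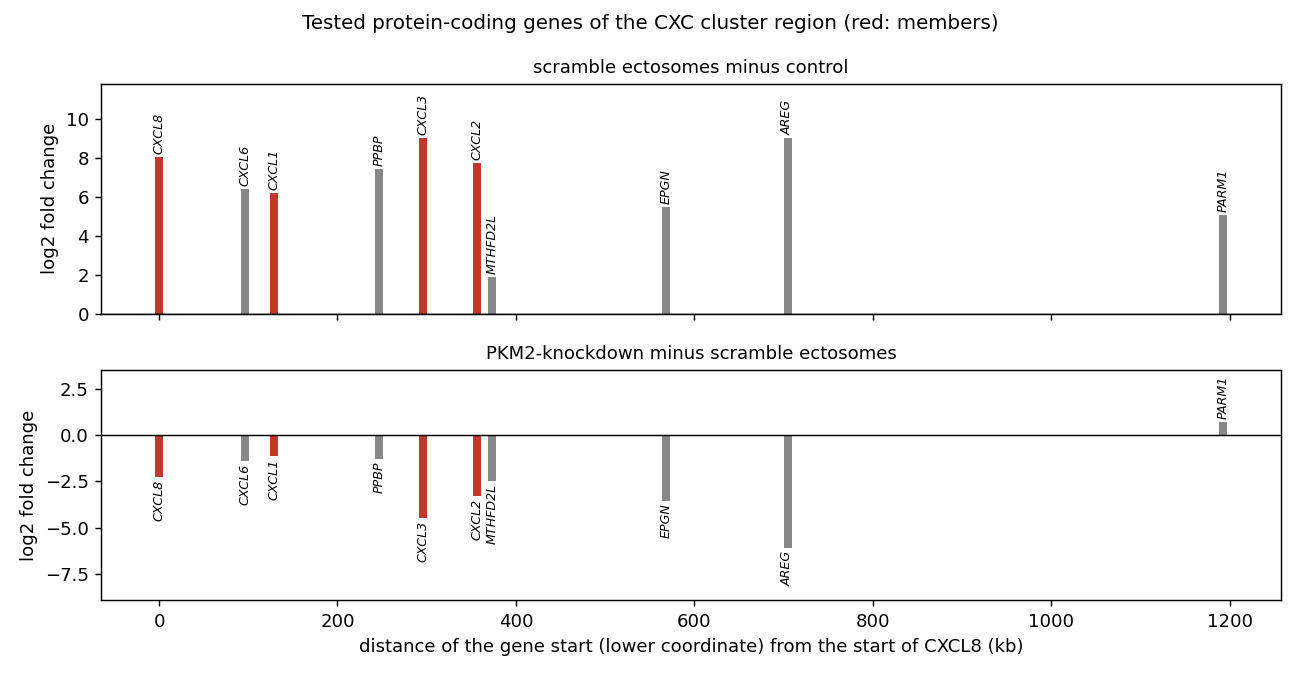
Log2 fold change of the 10 tested protein-coding genes of the chemokine cluster region against the distance of each gene's lower coordinate from that of CXCL8, in kb, for scramble minus control (upper panel) and PKM2-knockdown minus scramble ectosomes (lower panel), with members in red. All 10 bars point up in the upper panel, from 1.92 for MTHFD2L to 9.001 for AREG. In the lower panel all but PARM1 point down. CXCL2, CXCL3, CXCL6, PPBP, AREG, EPGN and PARM1 could not have passed the filter on control libraries alone, which favours upward bars for them.

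Among 18 genes of the interleukin-1, TNF and Toll-like receptor pathways, which include inhibitors such as IRAK3, the receptor antagonist IL1RN and the decoy receptor IL1R2, 11 were higher and 4 lower with scramble ectosomes than with control (median log2 fold change 0.87). Over all genes the shares were 34.6% and 33.2%. IL1A, IL1B and IL1R2 could not have passed the filter on control libraries alone, so it favoured a rise for them. IL1B, encoding interleukin-1 beta, had 149, 157 and 5 reads in control, 40844, 39640 and 43005 with scramble and 42802, 42619 and 37661 with PKM2-knockdown ectosomes. It rose by a log2 fold change of 8.62 (adjusted p = 8.31e-07; 9.51 with limma-voom) and did not differ detectably between the ectosomes (0.02, SE 0.46, adjusted p = 0.973). IL1A, encoding interleukin-1 alpha, rose from 0.196 to 49.2 CPM and was 2.79-fold lower with PKM2-knockdown ectosomes (log2 change -1.48, SE 0.18, adjusted p = 3.52e-05). The rise of IL1A was 240-fold, or 389-fold without control replicate 1. IL1R1, the signalling receptor of interleukin-1, rose from 1.19 to 43.8 CPM and was at 10.8 CPM with PKM2-knockdown ectosomes, 4.07-fold lower (adjusted p = 8.48e-06).

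TNF, named after its values were seen, was at 204, 201 and 28.3 CPM in control, 282, 307 and 303 CPM with scramble and 544, 559 and 529 CPM with PKM2-knockdown ectosomes. Groups did not overlap, yet neither scramble against control (log2 change 1.04, adjusted p = 0.0892) nor the 2 kinds of ectosomes (0.87, adjusted p = 0.151) passed the threshold. Without control replicate 3 both passed, at 0.55 (adjusted p = 1.30e-07) and 0.87 (adjusted p = 3.01e-11). TNFRSF1B, a TNF receptor, rose 5.85-fold with scramble ectosomes (adjusted p = 1.39e-07). TLR2, a receptor for bacterial lipoproteins, fell from 121 to 65.8 CPM and stood at 189 CPM with the knockdown, 2.88-fold above scramble (adjusted p = 1.75e-07). IRAK3, which restrains Toll-like receptor signalling, moved alike, from 240 to 137 and then 365 CPM (adjusted p = 3.03e-07 between the ectosomes). IRAK1, an activating kinase of the same pathway, did the opposite, from 232 to 359 and then 187 CPM (adjusted p = 6.41e-06 between the ectosomes). Between the ectosomes 4 of the 18 were higher and 7 lower with PKM2 knockdown (median -0.24), beside 31.4% and 30.3% of all genes. Without control replicate 3 these counts were 7 and 9, and with library totals as the scaling 6 and 4.

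A list of 15 genes holds NF-kB and IkB genes together with the IkB kinase genes IKBKB, CHUK, IKBKG and IKBKE and with TNFAIP3. Of the 15, 13 rose with scramble ectosomes (median log2 change 1.82; 12 higher and 1 lower with library totals as the scaling). Over all genes 34.6% were called higher and 33.2% lower in this comparison. NFKB1, encoding p105 and p50, rose 7.43-fold from 61.9 to 460 CPM. NFKBIZ, an atypical IkB that acts with p50 in the nucleus, rose 11.5-fold, REL 3.65-fold and RELA 1.82-fold (adjusted p = 1.70e-06, 1.13e-06 and 3.99e-06). Between the ectosomes 2 were higher and 5 lower with the knockdown (median -0.25), beside 31.4% and 30.3% of all genes. The share called lower was thus close to that of all genes. Single values ran from -0.92 for RELB to 1.49 for IKBKE. The count of 5 ran from 3 to 10 over the alternatives, with 9 without control replicate 3 and 3 without PKM2-knockdown replicate 1. NFKB1 was 1.74-fold lower (adjusted p = 0.000366) and NFKBIB 1.86-fold lower (adjusted p = 5.09e-05). The 2 higher genes, neither an NF-kB nor an IkB gene, were IKBKE, encoding a kinase related to the IkB kinases, at 51.7 and then 146 CPM (adjusted p = 7.16e-06), and TNFAIP3, encoding the inhibitor A20 and named after its values were seen, at 234 and then 478 CPM (adjusted p = 0.013). REL differed by a log2 fold change of -0.07 between the ectosomes (adjusted p = 0.665) and its groups overlapped.

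Of 12 genes of AP-1 and C/EBP factors and of EGR1, another immediate-early factor, 9 were higher and 2 lower with scramble ectosomes (median log2 fold change 1.76), and 7 were lower and 2 higher with PKM2-knockdown than with scramble ectosomes (median -1.08; 10 lower without control replicate 3). Over all genes 34.6% were higher and 33.2% lower with scramble ectosomes, and 30.3% were lower and 31.4% higher between the ectosomes. ATF3, a stress-induced factor that can also repress inflammatory genes, had 75, 94 and 19 reads in control, 2855, 2438 and 2757 with scramble and 237, 261 and 208 with PKM2-knockdown ectosomes. It was 11.2-fold lower with the knockdown (log2 change -3.48, SE 0.26, adjusted p = 1.26e-06), beside 9.89-fold for CXCL2. FOSL1, a partner of JUN in AP-1, rose from 6.32 to 36.1 CPM and was at 9.05 CPM with the knockdown, 3.98-fold lower (adjusted p = 6.34e-07). FOSL2 went from 199 to 475 and back to 187 CPM, where its groups overlapped those of control (adjusted p = 0.363). FOSB went from 2.41 to 9.76 and then 1.38 CPM, below control (adjusted p = 0.00215). Others, named after their values were seen, differed from these. JUN went from 28.3 to 275 and then 238 CPM, and JUN, JUND and FOS were not called between the ectosomes (adjusted p = 0.668, 0.309 and 0.433). The 2 higher genes were CEBPA and CEBPD (log2 changes 0.68 and 0.76), while CEBPB was lower (-1.30).

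The AU-rich sequence in the mRNAs was counted as the letters ATTTA after the stop codon of the longest coding transcript. There were 10 in CXCL2 (13.9 per kilobase), 7 in CXCL3 (10.4), 9 in CXCL8 (7.19), 5 in CXCL1 (7.08) and 11 in CXCL5 (5.51). The median over 18992 genes was 1.48 per kilobase, and 92.6% to 99.4% of genes had fewer per kilobase than a given member. The longer letters TTATTTATT, the core recognised by ZFP36 proteins, occurred 5 times in CXCL2, 3 times in CXCL1, once each in CXCL3 and CXCL8 and 0 times in CXCL5, and in 8.18% of genes at all. Among 12 regulators of such mRNAs, 5 were higher and 3 lower with scramble ectosomes (median log2 fold change 0.00; 4 and 5 with library totals as the scaling), and 3 were higher and 6 lower with PKM2-knockdown than with scramble ectosomes (median -0.13; 3 lower without scramble replicate 2 or 3 or without PKM2-knockdown replicate 1 or 2 or with library totals as the scaling, and 5 higher without control replicate 3). Over all genes the shares were 34.6% higher and 33.2% lower with scramble ectosomes, and 31.4% higher and 30.3% lower between the ectosomes. ZFP36L1, a protein that destabilises AU-rich mRNAs, had 482, 577 and 78 reads in control, 1862, 1948 and 1990 with scramble and 5871, 6611 and 5707 with PKM2-knockdown ectosomes. It was higher, not lower, with the knockdown, by 3.18-fold (log2 change 1.67, SE 0.42, adjusted p = 0.00508). MAPKAPK2, a kinase that stabilises such mRNAs, went from 109 to 184 and then 113 CPM (adjusted p = 8.08e-05 and 0.000181). Factors of mRNA decay went both ways with the knockdown. CNOT1, the scaffold of a deadenylase complex, was 1.31-fold lower (adjusted p = 0.0018) and RC3H1, encoding roquin-1, 1.38-fold lower (adjusted p = 0.00228). ZFP36, named after its values were seen, was 2.11-fold higher, at 76.9 and then 162 CPM (adjusted p = 0.00515). ZFP36L2, a relative of ZFP36L1, fell with scramble ectosomes from 381 to 135 CPM (adjusted p = 2.04e-05) and stood at 168 CPM with the knockdown (adjusted p = 0.137). DUSP1, a phosphatase of the p38 pathway, rose 12.1-fold with scramble ectosomes (adjusted p = 5.76e-09) and differed by -0.33 on the log2 scale between the ectosomes (adjusted p = 0.0225, but 0.223 with library totals, 0.0541 with no filter and 0.0532 to 0.0911 without scramble replicate 2 or 3 or without any 1 PKM2-knockdown replicate). ZC3H12A, encoding the endonuclease regnase-1, rose with scramble ectosomes (log2 change 3.17, adjusted p = 5.62e-06) and stood at 231 CPM with them and 268 CPM with the knockdown, a difference that did not pass the threshold (adjusted p = 0.529; 0.00129 without control replicate 3).

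**Figure D5:**
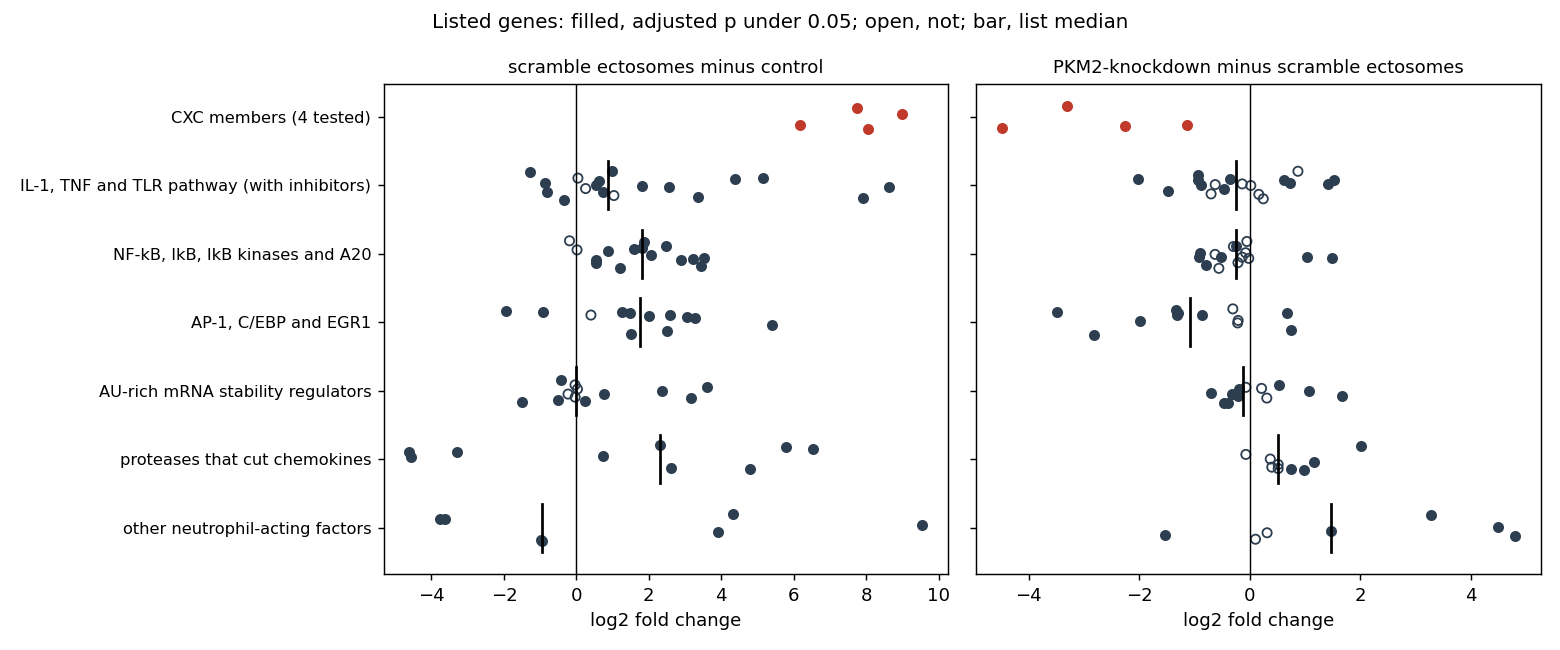
Log2 fold change of the 4 tested members (red) and of the tested genes of 6 lists (dark) for scramble minus control (left) and PKM2-knockdown minus scramble ectosomes (right); filled points passed adjusted p under 0.05, open points did not, and bars are list medians. On the right the median of the list with NF-kB and IkB genes is -0.25 and that of the list with AP-1 and C/EBP genes -1.08. The point of CSF2 on the left is fitted against 0 control reads. CXCL2, CXCL3, IL1A, IL1B, IL1R2, MMP1, MMP12, CSF2 and CSF3 could not have passed the filter on control libraries alone, which favours a rise for them.

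Genes with the pattern most like each member were ranked by the root mean square difference of centred log2(CPM + 0.5) over the 9 libraries, among 11401 genes outside the members with a mean of at least 5 CPM. Nearest to CXCL1 were IL1A (0.243 log2 units), TRAF1 (0.249) and N4BP3 (0.289). Nearest to CXCL8 were IL23A (0.326), the gene of a subunit of interleukin-23, IER3 (0.403) and THBS1 (0.507). Outside the members, CXCL2 lay closest to PHLDA1 (0.371), HMOX1 (0.622), encoding haem oxygenase 1, and NRP1 (0.675), and CXCL3 to GDF15 (0.574), a stress-induced cytokine gene, NRG1 (0.614) and PHLDA1 (0.817). CXCL2 and CXCL3 were 0.484 apart, nearer to each other than each was to these genes except for CXCL2 and PHLDA1, while CXCL1 and CXCL3 were 1.38 apart. With a pseudocount of 2 CPM, 6 of the 15 nearest genes (3 for each of 5 members) stayed among the nearest, so the ranking depends on the pseudocount. The 15 include the 3 of CXCL5, so 6 of 15 is not the share kept of the genes named here. With genes of a mean of at least 1 CPM admitted, 15 of 15 stayed. For CXCL5, whose level lay below the pseudocount, no nearest gene is given.

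Some reads could have been assigned among near-identical transcripts. Of stretches of 50 bases, 5.73% of the CXCL1 transcript, 9.24% of CXCL2 and 5.26% of CXCL3 occur in another of these 3 genes, while CXCL8 shares none. No stretch of 100 bases is shared by any member. How long the reads were and how ambiguous ones were handled is not given in the sources used here.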

How the data were processed

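RNA of 9 THP-1 libraries was sequenced on an Illumina instrument after library preparation with a NEBNext Ultra kit, per the labels' protocols. The authors deposited raw read counts per gene symbol in 1 table. The submitters' processing notes name HISAT2 2.0.5, featureCounts 1.5.0-p3 and GRCh38/hg38. Annotation release, strand setting, read length and filters before deposit: not given in the sources used here. Overlapping and antisense genes may therefore share reads. The lowest row total was 4 counts, and 355 rows repeat a symbol and were kept. Members, gene lists and tests were chosen with earlier results of these data known.

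Counts were tested with edgeR 4.0.16 in R 4.3.3. Rows were kept with filterByExpr by group (18437 of 30000, minimum 10 counts at the median library), scaled by TMM and fitted by quasi-likelihood over 9 libraries with a term for group, giving 6 residual degrees of freedom and a common biological coefficient of variation of 13.3%. Tests were two-sided, with Benjamini-Hochberg adjustment over all rows and a threshold of 0.05. A gene nearly silent in control was tested only through its ectosome libraries, and the filter then favours a rise. Every adjusted p is from this test unless another is named. Each SE was obtained from the log2 change and its F statistic, as their size over the root of F. Folds are fitted, with edgeR's small prior count. Levels are TMM-scaled CPM computed from the counts, and RPKM uses the union of GENCODE release 29 exons (99.93% of row names matched), which also gave gene coordinates. Promoters are from RefSeq on GRCh38.p14, where 5 of 5 members matched. Protein sequences were not used here.

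Named genes were the members, CXCL6, PPBP, CXCR1, CXCR2, PKM, up to 4 of each list with the smallest p in each of 2 comparisons, and 3 genes nearest in pattern to each member, unless the text says that a gene was named after its values were seen. The 16 alternatives per result were 2 other scalings, no filter, DESeq2 1.42.0, limma-voom (limma 3.58.1), a replicate block, only the 2 groups compared, and each of the 9 libraries left out. The scripts were tested on simulated data.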

Additional observations from a re-analysis of the deposited data

How the results depend on the processing

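For CXCL1, CXCL2, CXCL3 and CXCL8 in 3 comparisons, 16 of 16 alternatives kept the direction and the call. The highest adjusted p between the ectosomes was 0.00824 for CXCL8, without PKM2-knockdown replicate 3, and the others stayed at or below 0.00362. With no filter the count of members higher than control became 5, CXCL5 included, for both kinds of ectosomes, where 6721 and 5061 of all 30000 rows were called higher. Over 3888 values of listed genes 3734 kept their call or stayed uncalled, 89 lost the call and 65 gained it. In 0 the direction reversed where either result was called. A value that changed sign and stayed uncalled counts among the 3734. Scaling by library totals moved the median log2 change over all genes to -0.21 for scramble minus control and 0.20 between the ectosomes, and the share of calls that were higher from 51.0% to 40.2% and from 50.9% to 61.9%. Relative to these shifts the members kept their differences: between the ectosomes CXCL1 stood at -0.96, CXCL2 at -3.13, CXCL3 at -4.31 and CXCL8 at -2.08.

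The labels do not say whether libraries with the same replicate number belong together. The correlation of same-numbered deviations from the group means ran from -0.134 to 0.0948. It cannot settle the question, since control replicate 3 stands apart and weighs heavily in the control deviations. With the replicate block 12178, 11035 and 9401 genes were called for scramble against control, between the ectosomes and for PKM2-knockdown against control, where 12492, 11365 and 9904 were called without it, and the 4 members were called in each.

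Depth limited CXCL5, with 0, 24 and 14 reads in the 3 groups, and the folds of CXCL1, CXCL2 and CXCL3 against control, where they had 80, 63 and 28 reads. For CXCL8, with 1012 control reads, the exact counting interval of the scramble ratio was 240 to 271, while its control libraries ran from 3.58 to 25.0 CPM. With 3 libraries per group an exact permutation test cannot go below 0.1.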

Other observations

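Beside the chemokines, 7 other factors that act on neutrophils were tested. Of these, 3 were higher and 4 lower with scramble ectosomes than in control cells, and 4 were higher and 1 lower with PKM2-knockdown than with scramble ectosomes. Over all genes the shares were 34.6% and 33.2% in the first comparison and 31.4% and 30.3% in the second. CSF2 and CSF3, the latter named after its values were seen, could not have passed the filter on control libraries alone. The filter thus favoured a rise for both. S100A8 and S100A9, which form calprotectin, fell with scramble ectosomes and exceeded control with PKM2-knockdown ectosomes. S100A8 had 1495, 1754 and 1808 reads in control, 122, 124 and 141 with scramble and 3198, 3142 and 4177 with PKM2-knockdown ectosomes, a 27.9-fold difference between the ectosomes (log2 change 4.80, SE 0.19, adjusted p = 3.16e-08). S100A9 stood at 132, 10.8 and 245 CPM in the 3 groups. ALOX5 and LTA4H, enzymes of leukotriene B4 synthesis, were 9.73-fold and 2.77-fold higher with PKM2-knockdown than with scramble ectosomes (adjusted p = 3.68e-06 and 3.85e-05), and ALOX5AP rose with scramble ectosomes from 23.1 to 346 CPM and stood at 372 CPM with the knockdown (adjusted p = 0.750 between the ectosomes). CSF2, encoding GM-CSF, was the 1 of the 7 that was lower with the knockdown. It had 0 control reads, 102, 85 and 98 with scramble and 33, 36 and 27 with PKM2-knockdown ectosomes. Against 3 reads over the control group, and with its own reads taken as they stand, its scramble level was at least 92.1-fold higher, and it was 2.91-fold lower with the knockdown (adjusted p = 0.000132). The list median for scramble against control, -0.96, was the same with CSF2 at that bound.

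Proteases that cut chemokines split by kind with scramble ectosomes, where 34.6% of all genes were called higher and 33.2% lower. The granule proteases ELANE, PRTN3 and CTSG fell with scramble ectosomes, from 491 to 49.8, 337 to 14.2 and 730 to 29.98 CPM (adjusted p = 5.77e-08, 1.25e-07 and 3.65e-07). The other 6 tested rose, among them the collagenase gene MMP1, with 6 control reads and 361 over the scramble libraries, and ANPEP, encoding aminopeptidase N, from 247 to 414 CPM (adjusted p = 0.0121; 0.0645 with library totals as the scaling). MMP1 and MMP12 could not have passed the filter on control libraries alone, so it favoured a rise for them. Between the ectosomes 4 of 9 were higher with the knockdown, beside 31.4% of all genes, or 8 without control replicate 3. The split by kind did not hold here. The granule proteases PRTN3 and ELANE were 2.25-fold and 1.67-fold higher (adjusted p = 0.00196 and 0.00246), at 31.9 and 83.2 CPM. ANPEP was 1.98-fold higher (adjusted p = 0.00304), and MMP12, macrophage elastase, went from 0.630 to 2.56 CPM (adjusted p = 8.82e-05).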
